A study of Arabidopsis thaliana with 18 samples.

Results

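The low-oxygen marker genes described here are 10 Arabidopsis thaliana genes listed for their known induction under low oxygen: AT5G10040, AT3G29970, AT4G39675, AT4G33560, AT4G27450, AT1G33055, AT2G17850, AT1G19530, AT3G27220 and PDC2 (AT5G54960). They are 10 of the 13355 genes that a single-gene probe set names on this array, and each of the 10 has 1 probe set. The list was chosen by signals of these same arrays as well as by prior knowledge: earlier results had placed several of the genes among the largest falls of the double mutant against wild type on complete medium. Comparisons that use complete-medium arrays are therefore described for these genes with no test. Whole seedlings labelled as 7 days old were measured in 6 groups of 3 arrays. Wild-type Col-0 plants (WT) and plants mutant in both SPX1 and SPX2 (spx1 spx2, called the mutant) grew on complete medium, on medium lacking inorganic phosphate (Pi), or on medium lacking Pi followed by 4 h with Pi resupplied (resupplied). No starved group moved to fresh medium without Pi was analysed here, so the supply of Pi and the move itself cannot be told apart. The labels call the 3 arrays of a group biological replicates. The sources used here do not give the number of seedlings behind an array or the alleles of the mutant. No probe set used here names SPX1 or SPX2, so their loss was not checked.

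Plant cells sense oxygen through plant cysteine oxidases, which oxidise the N-terminal cysteine of group VII ethylene response factors such as RAP2.12 and so mark them for destruction. When oxygen is short these factors persist and switch on a small core set of genes, among them those of ethanolic fermentation and several that encode short proteins of unknown function. SPX1 and SPX2 are nuclear proteins that bind the phosphate starvation regulator PHR1 when Pi is ample and hold it back.

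Signals are RMA values on the log2 scale, where a difference of 1 is a factor of 2. Values below 4.397, the lowest of the arrays' lower quartiles, are called dim here, and a difference from a dim group is a lower bound because RMA compresses weak signals. In 3 arrays (WT complete replicate 3, mutant complete replicate 2 and mutant without Pi replicate 1) the polyadenylated dap spike-in was at 7.40 to 7.49, while the remaining 15 arrays had 9.56 to 10.77. The 3 prime minus 5 prime difference of the ubiquitin control was 1.24 to 1.45 in WT complete and 1.26 to 1.35 in mutant complete, above the 0.96 to 1.22 of the other 4 groups, so it moved with the medium, and its part in the results was not tested. Of 6 shoot markers, 1 had a probe set named here, the Rubisco activase gene RCA, at 13.52 to 14.17 over all arrays. Of 10 root markers, 3 had one. The log2 of their summed signal was 12.29 to 12.75 in WT complete, just below every other group, where it lay between 12.76 and 13.67. PYK10, the brightest, outweighs EXPA7 and EXPA18 in this sum. Alone, each of the 3 overlapped between WT complete and a mutant group. PYK10 reached 12.70 in WT complete, and its lowest mutant array without Pi read 12.64. The part of a changed share of roots in the results was not tested, and in whole seedlings fewer cells of a type and less RNA per cell cannot be told apart.

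Wild type on complete medium stood apart from every other group for all 10 genes. For 9 of them it was the highest group, with no array overlapping any other group, and for PDC2 it was the lowest. Taking the WT complete mean as 100%, the 9 genes stood on the linear scale at 9.66 to 32.2% in the mutant on complete medium (median 21.4%), at 0.918 to 32.5% in WT without Pi (median 16.8%) and at 1.08 to 23.9% in the mutant without Pi (median 16.0%). After 4 h of resupply they stood at 1.85 to 12.9% in WT (median 4.05%) and 1.82 to 13.2% in the mutant (median 3.91%). Some ends of these ranges come from dim group means and are upper bounds. They are 9.66% for AT5G10040, 0.918 and 1.08% for AT4G39675, and 12.9 and 13.2% for AT3G29970. The median of 16.8% in WT without Pi is the dim value of AT3G29970 and is an upper bound too. Across the 18 arrays the 36 pairs of these 9 genes had Pearson correlations of 0.50 to 0.99 (median 0.90), while the 9 pairs with PDC2 had -0.89 to -0.56. These correlations describe arrays that share the same libraries and group differences.

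**Figure D1:**
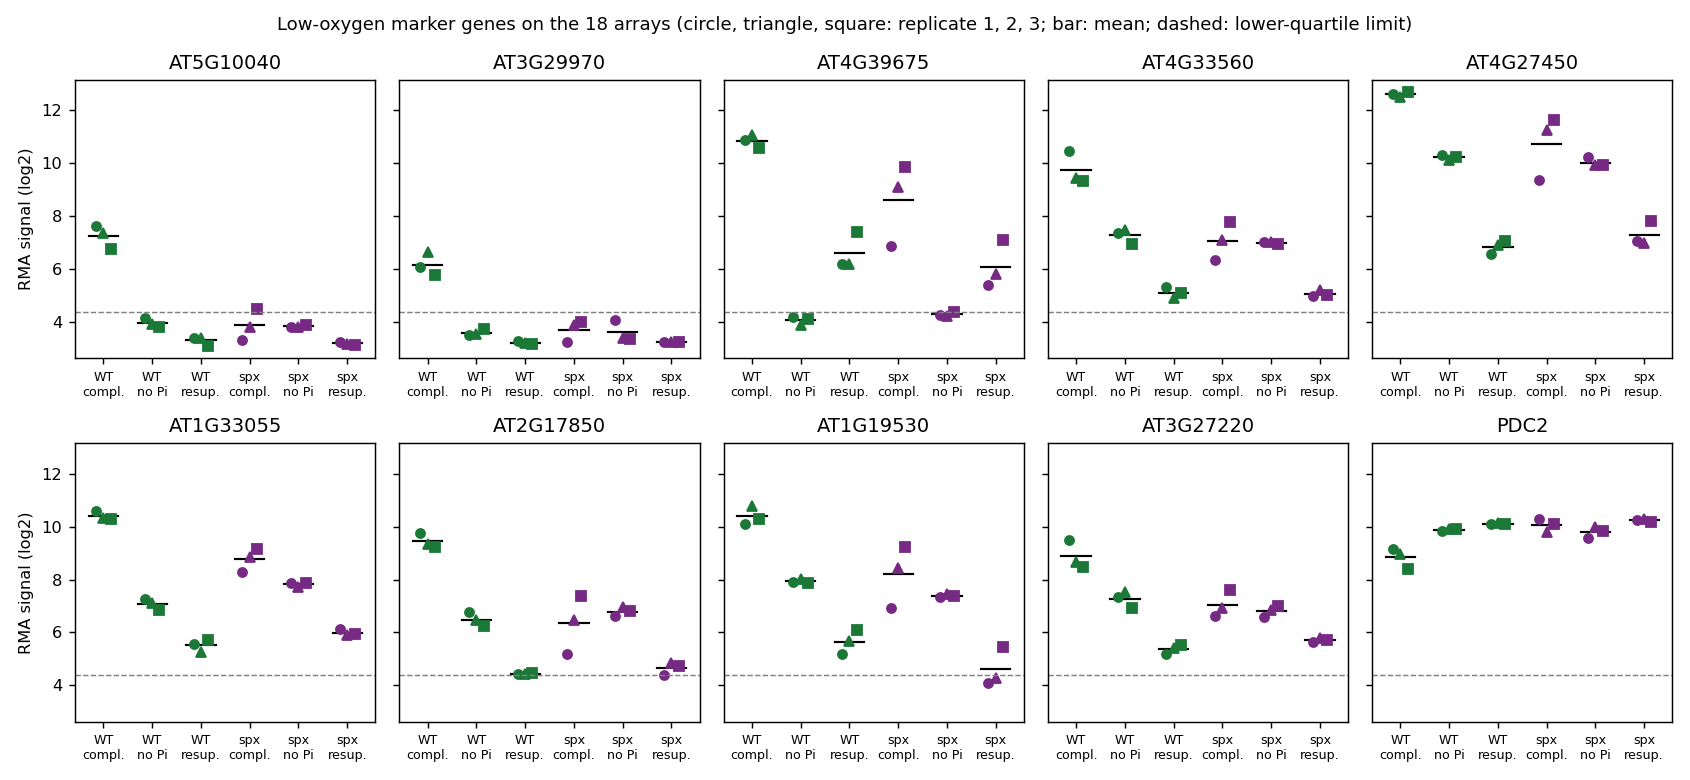
RMA signal (log2) of each gene on every array, by group, with WT in green and spx1 spx2 in purple, a bar at the group mean and a dashed line at the dim limit of 4.397. WT complete is the highest group in 9 panels and the lowest in that of PDC2, and the resupplied groups are the lowest in 8 panels.

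AT4G39675, which encodes a short protein of unknown function, had the widest swing. Its 3 WT complete arrays read 10.86, 11.08 and 10.56, and its WT arrays without Pi read 4.20, 3.89 and 4.11. After resupply the WT arrays read 6.18, 6.20 and 7.42. The mutant arrays read 6.87, 9.09 and 9.88 with complete medium, 4.27, 4.24 and 4.39 when Pi was lacking, and 5.39, 5.82 and 7.09 once it was resupplied. It was thus dim without Pi in both genotypes and above the dim limit after the 4 h, though far below its WT complete level. The mutant arrays on complete medium overlapped the resupplied arrays of both genotypes.

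AT5G10040, another short protein of unknown function, read 7.62, 7.35 and 6.78 in WT complete and was dim on average in the other 5 groups. Its mutant arrays on complete medium read 3.30, 3.83 and 4.50, its WT and mutant arrays without Pi 3.80 to 4.16 and 3.80 to 3.90, and its resupplied arrays 3.11 to 3.41 and 3.14 to 3.26. AT3G29970, of the B12D protein family, followed the same course from a lower start. It read 6.08, 6.66 and 5.76 in WT complete and 3.17 to 4.09 on the other 15 arrays. For both genes the means of all 5 groups outside WT complete lay below the dim limit.

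AT4G27450, an aluminium-induced-like protein, read 12.61, 12.52 and 12.68 in WT complete and 10.31, 10.13 and 10.24 in WT without Pi. After resupply it read 6.57, 6.92 and 7.05 in WT, which is 1.85% of its WT complete level on the linear scale. The mutant arrays read 9.35, 11.27 and 11.62 with complete medium, 10.22, 9.92 and 9.94 when Pi was lacking, and 7.05, 6.99 and 7.80 once it was resupplied. The 2 resupplied groups overlapped each other and no other group.

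AT1G33055, a short protein of unknown function, was the member with the finest grading. WT complete read 10.60, 10.31 and 10.28, mutant complete 8.28, 8.87 and 9.15, and mutant without Pi 7.87, 7.70 and 7.87. WT without Pi followed at 7.26, 7.11 and 6.84, then the resupplied mutant at 6.15, 5.92 and 5.93, then resupplied WT at 5.57, 5.27 and 5.72. No neighbouring groups in this order overlapped.

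AT1G19530, whose product has no described function, read 10.11, 10.77 and 10.28 in WT complete, 7.91, 8.04 and 7.87 in WT without Pi and 5.18, 5.67 and 6.09 in resupplied WT. The mutant read 6.94, 8.43 and 9.24 with complete medium, 7.36, 7.47 and 7.36 when Pi was lacking, and 4.10, 4.27 and 5.44 once it was resupplied. Mutant complete overlapped both groups without Pi, and the 2 resupplied groups overlapped each other.

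In WT the other 3 genes ran from complete medium down through no Pi to resupply. In the mutant all 3 overlapped between complete medium and no Pi, and the mean of AT2G17850 was the higher without Pi. AT4G33560, of the wound-responsive protein family, averaged 9.74 ± 0.62 in WT complete (SD, n = 3), 7.28 ± 0.28 in WT without Pi and 5.11 ± 0.22 in resupplied WT. Its mutant means were 7.07 ± 0.71, 7.00 ± 0.04 and 5.06 ± 0.12 in the same order of media. AT2G17850, of the rhodanese sulphurtransferase family, averaged 9.44 ± 0.27, 6.49 ± 0.27 and 4.43 ± 0.02 in WT and 6.35 ± 1.10, 6.79 ± 0.17 and 4.65 ± 0.24 in the mutant. AT3G27220, a kelch-repeat protein, averaged 8.88 ± 0.53, 7.26 ± 0.31 and 5.38 ± 0.17 in WT and 7.05 ± 0.51, 6.81 ± 0.20 and 5.72 ± 0.07 in the mutant. For all 3 genes the mutant on complete medium overlapped the groups without Pi, while the resupplied arrays lay below every array without Pi.

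PDC2, a pyruvate decarboxylase that makes acetaldehyde from pyruvate in the first step of ethanolic fermentation, ran against the other members. WT complete read 9.16, 8.98 and 8.40. WT without Pi read 9.82, 9.92 and 9.92, and resupplied WT 10.11, 10.12 and 10.09. The mutant read 10.30, 9.79 and 10.10 with complete medium, 9.57, 9.99 and 9.82 when Pi was lacking, and 10.27, 10.29 and 10.19 once it was resupplied. The WT complete arrays lay below the other 15, whose groups stood at 193 to 265% of the WT complete mean on the linear scale. The label low-oxygen marker therefore covers 9 genes that were highest in WT complete, of which AT4G39675 differed in its course on resupply, and 1 that was lowest there. No oxygen level was measured.

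On complete medium 9 of 10 genes were lower in the mutant in every array and PDC2 was higher in every array. This is the contrast that the choice of genes used. Over all 22746 probe sets tested, 13.1% were lower without overlap and 12.5% higher, and nothing is read from the members' count against these shares. The difference ran from -3.37 ± 0.22 on the log2 scale (SE, n = 3 arrays per group) for AT5G10040 to -1.63 ± 0.18 for AT1G33055, and was 1.22 ± 0.16 for PDC2. The median over the 10 genes was -2.20, against -0.06 over all probe sets. The differences of AT5G10040 and AT3G29970 (-2.45 ± 0.22) are lower bounds.

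The 3 mutant arrays on complete medium did not lie close together. Replicate 1 was the lowest and replicate 3 the highest for each of the 9 genes other than PDC2, while over all probe sets replicate 1 was lowest in 38.5% and replicate 3 highest in 42.1%. The gap between them was 3.01 on the log2 scale for AT4G39675, 2.31 for AT1G19530, 2.27 for AT4G27450 and 2.199 for AT2G17850, and 0.76 to 1.41 for the other 5. The median gap between the lowest and highest array of this group over all probe sets was 0.31. For PDC2 replicate 1 was the highest. The array with the low spike-in signal was replicate 2, in between. Without replicate 1 the median difference from WT was -1.58, and the difference fell in size to -1.35 ± 0.39 for AT4G39675 and -1.16 ± 0.20 for AT4G27450, while that of AT5G10040 was -3.08 ± 0.21.

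**Figure D2:**
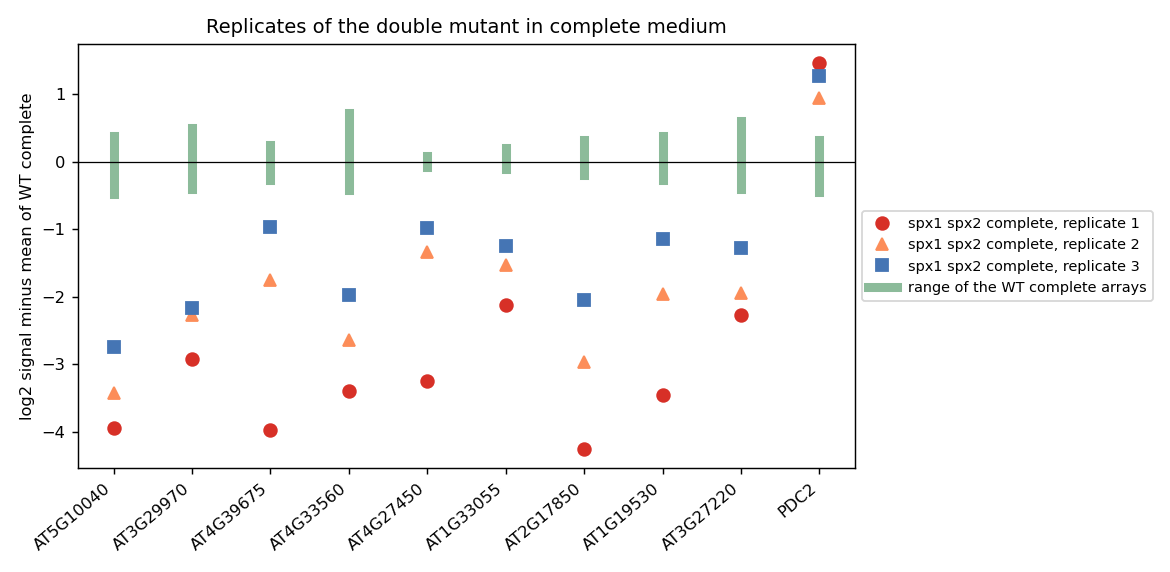
Log2 signal of each mutant array on complete medium minus the WT complete mean, with the range of the WT complete arrays as a green bar. Every mutant array lies below the WT range for 9 genes and above it for PDC2, and replicate 1 is the lowest for the 9.

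Growth without Pi was set against complete medium in each genotype. Both comparisons use arrays on which the members were chosen, so they are descriptive. In WT 9 of 10 genes were lower in every array (31.0% of all probe sets were) and PDC2 was higher in every array (22.2% were). AT4G39675 differed most, by -6.77 ± 0.53 on the log2 scale, at least 109-fold lower, and AT3G27220 least among the 9 (-1.62 ± 0.24). The median over the 10 was -2.52, against -0.11 over all probe sets. In the mutant AT4G39675 (-4.31 ± 0.53) and AT1G33055 (-0.95 ± 0.18) were lower in every array, as were 28.6% of all probe sets, none was higher in every array (20.3% were), and the other 8 overlapped between the media, with differences between -0.81 and 0.44. Of these 8, AT5G10040 (means 3.88 and 3.84) and AT3G29970 (3.72 and 3.61) were dim in both mutant media. A fall could show only weakly there, and both genes enter the median. The mutant's median difference was -0.25, against -0.03 over all probe sets. With 1 array left out it ran from -0.44 to -0.11, the former without mutant complete replicate 1. Without replicate 1, AT4G27450 differed by -1.42 ± 0.20 in place of -0.72 ± 0.37, AT1G19530 by -1.44 ± 0.32 in place of -0.81 ± 0.41, and AT2G17850 by -0.14 ± 0.22 in place of 0.44 ± 0.33. The WT and mutant comparisons share no array, but a test of their difference would rest on the complete-medium contrast and was not made.

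Resupplied seedlings were also set against complete medium. AT4G39675 stood less far below it than without Pi, by -4.23 ± 0.53 in WT and -2.51 ± 0.53 in the mutant. In WT 9 genes were lower in every array (34.6% of all probe sets were), with log2 differences of -5.76 to -2.95, and the largest gap was that of AT4G27450 (-5.76 ± 0.37, 54.0-fold lower). PDC2 was higher in every array (1.26 ± 0.16), as were 26.4% of all probe sets. The median over the 10 was -4.43. In the mutant 7 genes were lower in every array and none higher (24.6% and 24.7% of all probe sets were), the median was -1.86, and AT1G19530 differed most (-3.60 ± 0.41, 12.1-fold lower). Without mutant complete replicate 1 that median was -2.33. AT5G10040 and AT3G29970, which enter it, were dim in both mutant complete and the resupplied mutant.

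The effect of 4 h of resupply on starved seedlings was tested, since the means it compares come from no array on complete medium. The spread was estimated over all 6 groups, so the scattered mutant arrays on complete medium enter every SE and p given here. A fit of the compared groups alone called all 10 members on resupply in WT and 9 in the mutant. The share of all probe sets called in such fits was not counted, so nothing is read from these numbers. The shares given next belong to the fit of all 6 groups. In WT, 7 genes fell and 1 rose (limma, Benjamini-Hochberg adjusted over all 22746 probe sets, adjusted p under 0.05), where 19.0% of all probe sets fell, 18.4% rose and 37.4% did either. In the mutant 7 fell and 2 rose, where 19.3% of all probe sets fell, 23.5% rose and 42.8% did either. Without overlap of arrays, 8 genes were lower and 2 higher after resupply in each genotype, where 32.3% of all probe sets were lower and 25.7% higher in WT, and 24.4% lower and 27.4% higher in the mutant. The 7 that fell were the same in both genotypes: AT5G10040, AT4G33560, AT4G27450, AT1G33055, AT2G17850, AT1G19530 and AT3G27220. The median change over the 10 members was -1.71 on the log2 scale in WT and -1.46 in the mutant, against -0.05 and -0.01 over all probe sets.

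AT4G27450 changed most in WT, by -3.38 ± 0.37 on the log2 scale, a 10.4-fold fall (SE, n = 3 arrays per group, limma adjusted p = 6.42e-07), and by -2.74 ± 0.37 in the mutant (limma adjusted p = 6.18e-06). AT1G19530 fell most in the mutant, at -2.80 ± 0.41, and changed by -2.29 ± 0.41 in WT, with limma adjusted p of 1.65e-05 and 0.000172. AT4G33560, AT2G17850, AT3G27220 and AT1G33055 changed by -2.16 to -1.10 over both genotypes, each with an adjusted p of 0.000995 or less. In all 6 of these genes every resupplied array lay below every array without Pi, in both genotypes.

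AT4G39675 was the only member called higher after resupply in both genotypes. It rose by 2.53 ± 0.53 on the log2 scale in WT (at least 5.79-fold, limma adjusted p = 0.000799) and by 1.80 ± 0.53 in the mutant (at least 3.48-fold, limma adjusted p = 0.00979). In both genotypes replicate 3 was the highest resupplied array, and without that array the change was 2.13 in WT, with an adjusted p of 0.00776, and 1.30 in the mutant, where the call was lost (adjusted p = 0.0742). AT5G10040 fell by 0.65 ± 0.22 in WT and by 0.65 ± 0.22 in the mutant, both between dim groups (adjusted p = 0.0276 and 0.0259). Its call was lost without WT no Pi replicate 1 or 2 or WT resupplied replicate 3 (adjusted p = 0.108, 0.0572 and 0.114). In the mutant it was lost without replicate 2 or 3 of either group (adjusted p between 0.0547 and 0.0707). AT3G29970 did not pass in either genotype (-0.38 ± 0.22 and -0.37 ± 0.22, adjusted p = 0.193 and 0.194), and all 4 of its group means there were dim. In WT it passed with array weights (adjusted p = 0.0168) and in a fit of the groups compared alone (adjusted p = 0.0032).

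PDC2 rose by 0.46 ± 0.16 in the mutant (1.37-fold, limma adjusted p = 0.0275) and did not pass in WT (0.22 ± 0.16, 95% interval -0.12 to 0.55, limma adjusted p = 0.324), although its resupplied arrays were higher in both genotypes. The mutant call was lost without no Pi replicate 1 or 3 (adjusted p = 0.133 and 0.0525) or resupplied replicate 1 or 2 (adjusted p = 0.0644 and 0.076). The WT resupplied arrays read 9.56 to 9.75 for the dap spike-in, against 10.30 to 10.37 in WT without Pi, while the resupplied mutant arrays read 10.29 to 10.46. The part of this labelling control in the WT changes was not tested. Of the root hair expansin genes, EXPA18 rose on resupply in both genotypes (0.71 ± 0.22 and 1.98 ± 0.22) and EXPA7 in the mutant (1.91 ± 0.20) but not in WT (0.46 ± 0.20, adjusted p = 0.0871). The third root marker, PYK10, did not pass in WT (0.19 ± 0.14, adjusted p = 0.352) or the mutant (0.31 ± 0.14, adjusted p = 0.0941), while the shoot marker RCA did not pass in either (0.02 ± 0.10 and -0.15 ± 0.10).

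**Figure D3:**
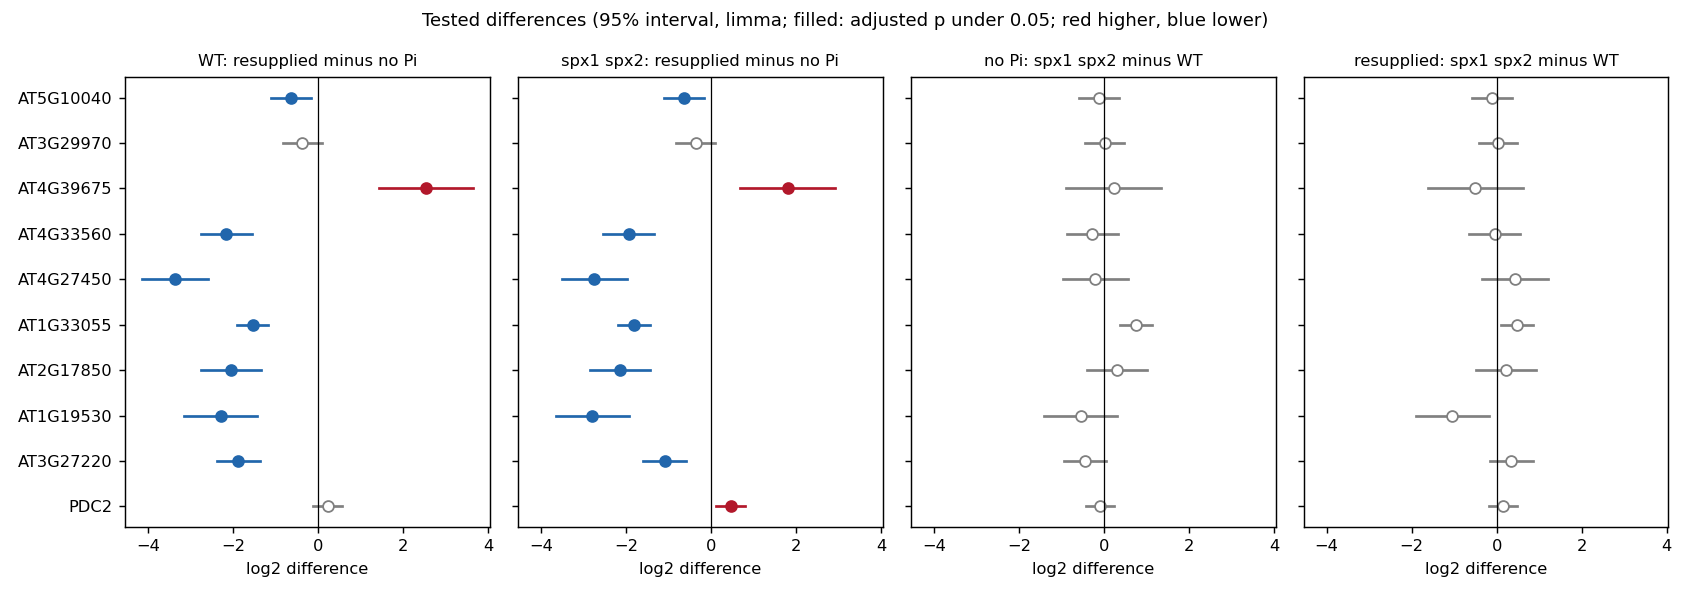
Log2 differences with 95% intervals from limma for the 4 two-group tests, filled where the adjusted p is under 0.05. Resupply moved 7 genes down and AT4G39675 up in both genotypes, and no interval of the genotype tests is filled.

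Without Pi, no gene passed between the genotypes in limma, where 0.831% of all probe sets did. The share of all probe sets with an unadjusted p under 0.05 was not counted, so nothing is read from the members' count there. Among the members 1 had such a p. That gene was AT1G33055, higher in the mutant by 0.75 ± 0.18 (95% interval 0.38 to 1.12, limma adjusted p = 0.0521), with every mutant array above every WT array, as for the dim AT4G39675 (10.2% of all probe sets were higher without overlap). It passed in 5 of the alternative fits (adjusted p between 0.0125 and 0.0375). The other 9 differed by -0.54 to 0.30, with 95% intervals that lay within -1.40 and 1.35. AT1G19530 was lower in every mutant array (-0.54 ± 0.41, limma adjusted p = 0.592), as were 11.7% of all probe sets.

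After resupply no gene passed between the genotypes either, where 23.1% of all probe sets did. An unadjusted p under 0.05 was met by 2. The share of all probe sets that met it was not counted and is at least that 23.1%. Arrays did not overlap, with the mutant higher, for AT1G33055, AT3G27220 and PDC2 (28.4% of all probe sets were so), and for none with the mutant lower (21.2% were). The difference of AT1G33055 was 0.48 ± 0.18 (95% interval 0.11 to 0.85, limma adjusted p = 0.0581), and passed in 6 of the alternative fits (adjusted p between 0.00936 and 0.0497). AT1G19530 was lower by 1.05 ± 0.41 (95% interval -1.90 to -0.19, limma adjusted p = 0.0737). Without mutant resupplied replicate 3, its highest array, that difference was -1.46 and passed (adjusted p = 0.025). It also passed with the replicate block (adjusted p = 0.0354), with array weights (adjusted p = 0.0105) and in a fit of the groups compared alone (adjusted p = 0.0252). The 95% interval of the difference was -0.34 to 1.21 for AT4G27450 and -1.62 to 0.61 for AT4G39675, so each interval holds a difference of 1 on the log2 scale.

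The resupply change in the mutant was compared directly with that in WT. No member passed this interaction test in limma, where 11.6% of all probe sets did. The share of all probe sets with an unadjusted p under 0.05 was not counted and is at least that 11.6%. Among the members 1 had such a p. That was AT3G27220, which changed by -1.10 ± 0.24 in the mutant and by -1.88 ± 0.24 in WT, a difference of 0.78 ± 0.34 (limma adjusted p = 0.156). It passed with array weights (0.73, adjusted p = 0.0335) and in a fit of the 4 groups alone (adjusted p = 0.015). The interaction values of the other 9 ran from -0.73 ± 0.75 for AT4G39675 to 0.64 ± 0.52 for AT4G27450.

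Other genes of the response came from lists of 69 genes, made from general knowledge of low-oxygen biology without the members, of which 23 have a single-gene probe set here. The lists were made with earlier results of these arrays known. Their counts and p-values in every comparison that uses complete-medium arrays are therefore no independent evidence of a direction. The fermentation list has 2 measured of 14, the oxygen sensing list 1 of 16, and the list of other core genes 20 of 39. Measured means here that a probe set names the gene alone. No gene was named for 8730 probe sets, so the array may hold sets for the listed genes left out. In limma 14 of the 23 were lower and 2 higher in the mutant on complete medium, where 8.15% of all probe sets were lower and 10.1% higher. Starvation lowered 11 and raised 6 in WT (28.1% and 20.4% of all probe sets, 48.5% in all), and lowered 8 and raised 9 in the mutant (26.3% and 17.7%, 44.0% in all). Against complete medium, 14 were lower and 4 higher in resupplied WT (30.4% and 23.8%, 54.2% in all), and 10 were lower and 6 higher in the resupplied mutant (21.4% and 20.5%, 41.9% in all). Resupply lowered 12 and raised 4 in WT (19.0% and 18.4% of all probe sets, 37.4% in all). In the mutant it lowered 15 and raised 5 (19.3% and 23.5%, 42.8% in all). Without Pi 1 was lower in the mutant (0.492% of all probe sets were) and none higher, and after resupply 5 were lower and 2 higher (11.7% and 11.4% of all probe sets). The median change on resupply was -0.62 in WT and -0.70 in the mutant.

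The oxygen sensing gene measured was AT3G10040 (HRA1), a trihelix factor that restrains RAP2.12, and it was highest in WT complete and lowest after resupply. WT read 9.05, 8.27 and 8.38 with complete medium, 6.71, 6.40 and 6.17 when Pi was lacking, and 5.34, 4.995 and 5.27 once it was resupplied. The mutant read 7.26, 6.98 and 7.01, then 6.67, 6.67 and 6.78, then 5.26, 5.08 and 5.12. It was lower in the mutant on complete medium by 1.48 ± 0.17 on the log2 scale (limma adjusted p = 3.86e-06), fell on starvation in WT by 2.14 ± 0.17 (limma adjusted p = 3.96e-09), and fell on resupply in WT by 1.22 ± 0.17 and in the mutant by 1.55 ± 0.17. In the mutant its starvation change did not pass (-0.38 ± 0.17, adjusted p = 0.0825). The list was made with earlier results of these arrays known. The p-values that use complete-medium arrays are therefore no independent evidence of a direction. Its mutant arrays on complete medium lay between 6.98 and 7.26, and replicate 1 was the highest of them.

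The fermentation genes measured were AT4G17260, a lactate dehydrogenase, and PPDK, pyruvate orthophosphate dikinase. AT4G17260 fell on resupply by 1.07 ± 0.10 in WT and by 1.07 ± 0.10 in the mutant and was lower in the mutant on complete medium by 0.58 ± 0.10 (limma adjusted p = 0.000517), but starvation left it at 0.18 ± 0.10 in WT (adjusted p = 0.176) and raised it in the mutant by 0.85 ± 0.10. PPDK passed on starvation and on resupply in the mutant alone among the 10 comparisons, at 0.42 ± 0.15 and -0.43 ± 0.15, and the difference of its resupply change between genotypes did not pass (-0.09 ± 0.21, adjusted p = 0.859). For both genes the results that use complete-medium arrays are again no independent evidence of a direction.

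Among the other core genes, AT4G10270, of the wound-responsive protein family like AT4G33560, was lower in the mutant on complete medium (-1.27 ± 0.14), fell on starvation in WT (-2.11 ± 0.14) and fell on resupply in both genotypes (-0.94 ± 0.14 and -1.71 ± 0.14). AT5G26200, a mitochondrial carrier protein that was also among the largest differences of the complete-medium contrast, averaged 8.06 ± 0.23 (SD, n = 3) in WT complete and 6.29 ± 0.61 in mutant complete. It lay between 4.23 and 4.61 on all 12 arrays of the other groups and did not pass on resupply in WT (-0.22 ± 0.19) or the mutant (-0.05 ± 0.19). Its resupplied means, 4.25 in WT and 4.36 in the mutant, were dim, so a fall could show only weakly there. Several listed genes ran otherwise. AT2G16890, a glycosyltransferase family gene, was higher in the mutant on complete medium (1.73 ± 0.25) and rose on resupply in both genotypes (2.01 ± 0.25 and 1.54 ± 0.25). The calmodulin-like gene CML38 rose on starvation in WT (2.98 ± 0.18) and the mutant (4.32 ± 0.18), and fell on resupply by 0.64 ± 0.18 in WT and 4.49 ± 0.18 in the mutant. FHL, a phytochrome A signalling gene, rose on starvation by 4.11 ± 0.17 in WT and changed by -4.11 ± 0.17 there on resupply. AT3G23170 rose on starvation by 2.81 ± 0.14 in WT and 2.89 ± 0.14 in the mutant.

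**Figure D4:**
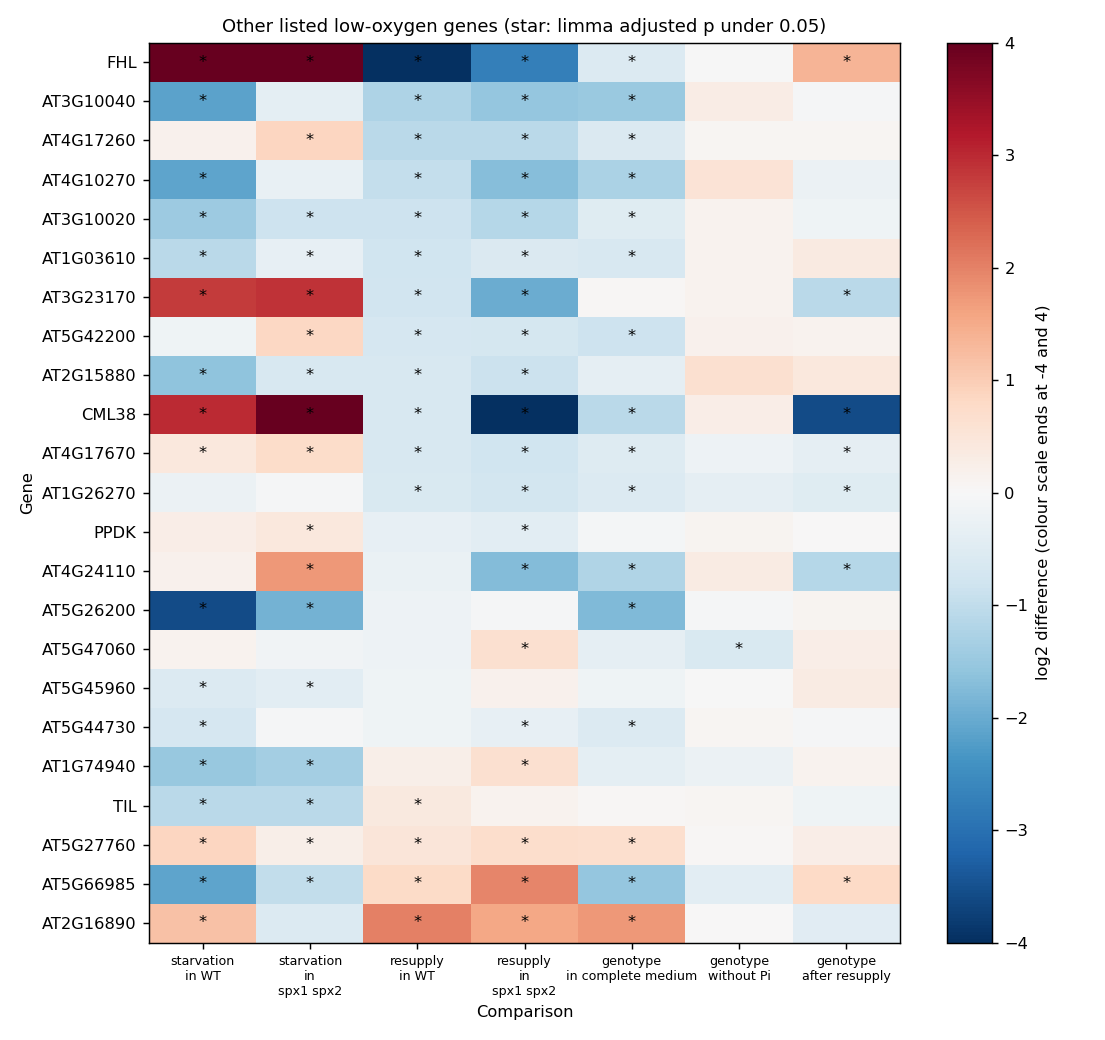
Log2 differences of the 23 other listed low-oxygen genes (rows) in 7 comparisons (columns), red for higher and blue for lower, with a star where the limma adjusted p is under 0.05. In the column for the genotypes on complete medium 14 of the 23 are lower with a star and 2 are higher. The lists were made with earlier results of these arrays known.

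Genes outside the lists with the most similar course were ranked by Pearson correlation with the mean standardised profile of the 10 members over the 18 arrays, among 3876 single-gene probe sets whose group means spanned at least 1 on the log2 scale. The closest were bHLH121, a regulator of iron homeostasis (r = 0.976), AT5G02440 (r = 0.976), ETFQO, a mitochondrial electron transfer flavoprotein oxidoreductase (r = 0.970), AT5G63190 (r = 0.969), AT1G31310 (r = 0.969) and TBL36, of the wall acetylation family (r = 0.967). TBL36 averaged 10.80 ± 0.09 (SD, n = 3) in WT complete, 9.15 ± 0.08 in WT without Pi, 7.96 ± 0.24 in resupplied WT, and 9.36 ± 0.59, 9.03 ± 0.19 and 8.43 ± 0.16 in the mutant in the same order. With PDC2 left out of the profile, 5 of these 6 stayed among the closest 6, ETFQO gave way to AT3G01690 (r = 0.963), and AT1G31310 came second (r = 0.976). These values describe arrays that share the group differences and carry no test.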

How the data were processed

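Signals of 18 Affymetrix arrays were deposited as log2 values, 1 per probe set, made by RMA per the submitters' processing notes. The log base was inferred from the range, 2.289 to 14.346. The sources used here do not name the software version or the probe set definition. Medians of the arrays lay between 6.72 and 6.91, and RMA equalises array distributions, so a change in total RNA is not measured. No depth applies to arrays, and the number of arrays limits the precision.

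Of 22810 probe sets, 64 controls were left out. Genes were named through the probe table and matched to RefSeq by gene identifier, 13436 of 13513 single-gene probe sets. No gene was named for 8730 probe sets, so a listed gene without a named set may still be on the array. All 22746 sets were fitted in 1 model of 6 group means with limma 3.58.1 on R 4.3.3 (12 residual and 6.40 prior degrees of freedom). Tests are two-sided with Benjamini-Hochberg adjustment over all sets. The procedure was tested on simulated normal data in which a probe set had the same SD in every group. Unequal spread between groups, as in the mutant on complete medium, was not covered by it. Where a gene had several probe sets the brightest was taken.

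Members and lists were chosen with earlier results of these data known. Comparisons using complete-medium arrays were not tested on members. They were tested on the lists, and those results are no independent evidence of a direction. All members are named, with every gene of the fermentation list, up to 6 genes per other list by largest change past the test, and the 6 closest profiles. Members' sequences and coordinates are not given, since no sequence table or build of the files was used here.

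Same-numbered arrays were checked for pairing by the correlation of their deviations from group means, which ran from -0.45 to 0.23 over 9 comparisons. In no comparison did every pair exceed 0.1, so the numbers were not treated as pairs. The labels say biological replicates and do not name separate cultures, so p-values measure the spread between these samples. Alternatives were a replicate block, array centring, array weights, a robust trend, a brightness filter, fits with no other group, a block for the arrays with low spike-in signal or their removal, and each array left out.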

Additional observations from a re-analysis of the deposited data

Results flagged for a closer look

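The 10 low-oxygen marker genes gave no change on resupply that passed the test of a difference between the genotypes. Of the 23 other listed genes 7 did, and of the 4 tissue markers 2, where 11.6% of all probe sets did, each value being the log2 change on resupply in the mutant minus that in WT (limma). CML38 stood at -3.84 ± 0.25, with falls of 4.49 in the mutant and 0.64 in WT. FHL stood at 1.36 ± 0.24, with changes of -2.75 in the mutant and -4.11 in WT. AT3G23170 stood at -1.20 ± 0.20 and AT4G10270 at -0.77 ± 0.20, and both fell further in the mutant. All genes named in this section are given because they passed this test, after their values were seen. AT4G24110 stood at -1.48 ± 0.21, AT5G66985 at 1.22 ± 0.23 and AT5G47060 at 0.86 ± 0.19. The root hair genes EXPA7 and EXPA18 stood at 1.45 ± 0.29 and 1.26 ± 0.31, rising further in the mutant.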

How the results depend on the processing

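The 50 member results that were tested were recomputed 735 times in all. Of these, 701 stayed on the same side of the threshold, 12 lost the call, 22 gained it and 0 reversed a called direction, while 27 that were called in neither fit changed sign, at sizes of 0.22 or less. The brightness filter kept 5 members and called 4 of them on resupply in WT and 5 in the mutant. It called 6323 and 6903 of the 11373 probe sets kept. Between genotypes without Pi, 1 member passed with centring, array weights, a robust trend or the brightness filter, and 2 in a fit of those groups alone. After resupply 1 passed with the replicate block (AT1G19530, adjusted p = 0.0354), centring, a robust trend, the spike-in block or the brightness filter, 2 with array weights and 3 in a fit of the groups alone, and leaving out 1 array gave 0 to 1. For the interaction 1 passed with array weights and 1 with the groups alone. The share of all probe sets called was not counted for fits of the groups alone. The replicate block changed no other call of a member. Of the other listed genes, those called between genotypes without Pi numbered 0 with the replicate block, the 15 other arrays or the groups alone, 2 with array weights or the spike-in block, and 0 to 1 with 1 array left out. After resupply 13 were called with array weights or the groups alone. Median member differences with the brightness filter were -0.72 for starvation and -2.77 for resupplied against complete in the mutant. Leaving out 1 array gave -2.65 to -1.58 for the genotypes on complete medium and -2.33 to -1.42 for the mutant resupplied against complete. Over all probe sets, calls between genotypes without Pi numbered 189, against 125 with the replicate block and 667 with array weights. With array weights they rose from 5249 to 9266 after resupply and from 2638 to 5843 for the interaction. In 1 of 9 comparisons, that of the genotypes after resupply, every sample correlated best with its own replicate number, a hint from the data and not from the design. The 3 arrays per group and dim signals outside WT complete limit what could be detected.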
